A study of Mus musculus with 80 samples.

Results

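The reporters described here gave RNA in one of a pair of sister cultures and none in the other when their promoter was shut down with a saturating dose of doxycycline (dox). A reporter was taken when it had at least 100 DNA counts in all 8 DNA libraries of its pool, at least 10 RNA counts in exactly 1 of the 2 RNA libraries at 100 ng/ml dox, and 0 counts in the other. This rule found 1458 reporters among 10903 in the table, or 19.7% of the 7415 that met the DNA minimum. They are called one-culture reporters. Of the others that met the DNA minimum, 3234 had 0 RNA counts in both cultures at dox 100 (silent reporters), 2433 had at least 10 in both (both-culture reporters), and 290 lay in between. The members were chosen by their RNA counts at dox 100, among reporters above a DNA minimum that all 3 classes share. RNA counts at dox 100 are therefore given as a description without a test.

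A tet-Off promoter is driven by the tetracycline-controlled transactivator, which binds operator sequences in the promoter and activates transcription. Dox binds the transactivator and releases it from DNA, so that rising doses leave the promoter with less and less activation. In the assay known as TRIP, reporters that each carry a random barcode are scattered over the genome by a transposon, and the RNA made at each site is read as barcode counts in cDNA beside barcode counts in genomic DNA. The DNA count reflects how many cells in the pool carry the integration.

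All libraries came from EBRTcH3, embryonic stem cells of the mouse whose ROSA26 locus expresses the transactivator. Every sample carried piggyBac tet-Off reporters and came from cells sorted for low eGFP, so reporters of other cells are not represented. There were 4 pools (A, B, C and D). Each was divided into 2 cultures, grown apart for 7 days and then treated for 72 h with dox at 0, 0.01, 0.1 or 100 ng/ml, and RNA and DNA libraries were made from each of the resulting samples. The libraries treated without dox are the control samples. The sister cultures are technical replicates per the labels, so the p-values of tests over them reflect how far such cultures and libraries vary. The libraries counted barcodes alone, so the cell line could not be checked against marker genes, and a barcode count cannot tell fewer RNA-making cells from less RNA per cell.

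Total counts ran from 729552 to 1840870 per RNA library and from 928128 to 1571280 per DNA library. At dox 100 between 768 and 976 of the reporters that met the DNA minimum in pool D had RNA in a given culture, and 793 to 815 in pool A. One-culture reporters supplied 0.885 to 1.81% of all RNA counts in the dox 100 libraries. The reads were amplified without molecular identifiers, so a count is not a number of RNA molecules, and floors cover counting error only. Each library was sequenced to a depth of its own, so a reporter's count at different doses is relative to the other reporters of that library.

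The barcodes below belong to reporters with high dox 100 counts, to the one whose DNA differed between cultures, to the one with the lowest level without dox (chr11:29350554), and to the closest pairs. They are shown because the barcode is the only part of the transcript by which a reporter is recognised, and each result rests on counts of these letters. Each is written 5′ to 3′ as in the deposited table, with the pool and the mm9 position and strand of the integration.
Pool D, chr11:20757316, plus strand: gcaatgacccatttag
Pool D, chr5:20248209, plus strand: cctaatacacatgcga
Pool A, chr1:89751319, plus strand: tctaaaatacacactt
Pool A, chr1:39579559, plus strand: acccaagaaatcggca
Pool B, chr14:78598056, plus strand: tcatttgctgggacgt
Pool C, chr1:66752179, plus strand: cgagccgcaaatagac
Pool D, chr2:109122080, minus strand: aataggtgaactggac
Pool B, chr11:29350554, plus strand: tacaaaggaaccgtca
Pool D, chr11:107847453, plus strand: tctaatacccactctt
Pool D, chr11:107847778, plus strand: cgtcacacaaccttaa
Pool D, chr1:90693726, minus strand: gtgattgaaggaacta
Pool D, chr1:90697390, plus strand: atgaaaccctccgcag

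Barcode composition was alike in the 3 classes. Mean GC content was 40.9% ± 12.1 (SD, n = 1458) in one-culture reporters, 41.1% in both-culture reporters and 41.3% in silent reporters. In 1424 of the 1458 the barcode had 16 bases. The barcode of 112 one-culture reporters (7.68%) also occurred in another pool, at another integration. This held for 8.47% of both-culture and 7.27% of silent reporters. In 10 cases both reporters sharing a barcode across pools were one-culture reporters, and in 4 of these the RNA was in the culture of the same number.

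In the culture with RNA, the counts stood well above the minimum of 10. The median was 72 counts, the range 10 to 604, and the middle 90% lay between 27 and 203. Counts just above the minimum were rare: 35 reporters (2.40%) had fewer than 20 counts, whereas 1046 (71.7%) had 50 or more. Below the minimum, 140 reporters had 1 to 4 counts beside 0 in the other culture and 23 had 5 to 9, against 184 with 40 to 49 counts. Between these lay 35 with 10 to 19 counts, 56 with 20 to 29 and 137 with 30 to 39. Over all libraries together the distribution therefore had a trough, though no empty range, between the lowest counts and the peak. The bins under 10 counts are narrower than the others.

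Each of the 8 dox 100 libraries had its own preferred count. The fullest 10-count bin was 40 to 49 in culture 1 of pools B, C and D, 60 to 69 in culture 1 of pool A, 70 to 79 in culture 2 of pool C, and 80 to 89 in culture 2 of pools A and B. In culture 2 of pool D the bins 70 to 79 and 80 to 89 tied at 13 reporters each, and the lower one was used. Between 39.9 and 46.9% of the one-culture reporters of a library lay within 25% of the middle of that bin. No more than 9.43% in any library lay below 0.5 times it, a share from which the rule had already left out counts under 10. In a window from 1.75 to 2.25 times the bin's middle there were 208 reporters over all libraries, against 203 in the nearer window from 1.25 to 1.75 and 646 from 0.75 to 1.25. The farther window held more than the nearer one in 3 of the 8 libraries, which were culture 2 of pools A, B and D. These windows were chosen after the histogram had been seen.

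**Figure D1:**
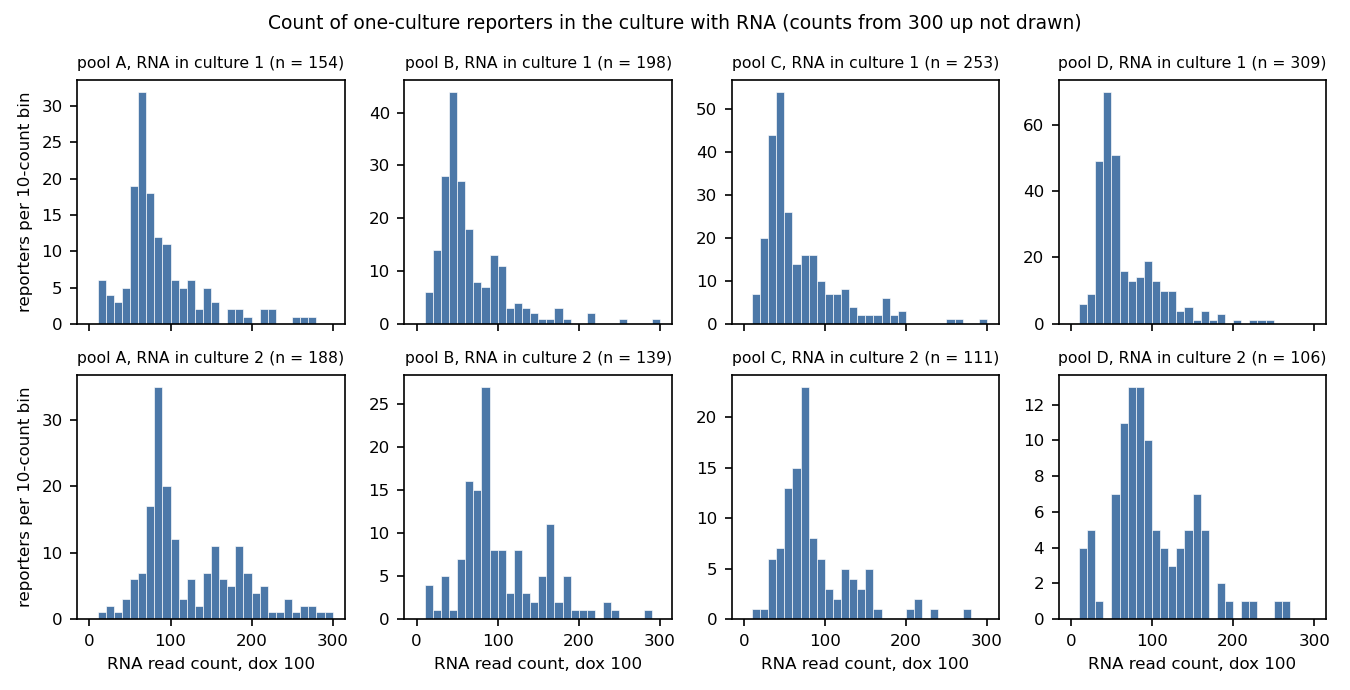
RNA read count at dox 100 (x axis, bins of 10 counts) of the one-culture reporters of each pool, by the culture that held the RNA; bars give the number of reporters per bin (y axis, scaled per panel). Each library has a peak, between 40 to 49 and 80 to 89 counts, few reporters just above the minimum of 10, and a tail; counts of 300 and more, up to 604, are not drawn.

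The preferred count hardly followed the abundance of the integration. In culture 1 of pool D, reporters in the lowest tertile of DNA counts had a median of 232 DNA and 50 RNA counts, those in the middle tertile 369 and 55, and those in the highest tertile 598 and 53. In culture 2 of pool B the medians were 350 DNA and 85.5 RNA counts, 639.5 and 83, and 1152 and 96. Over the 8 libraries Spearman's rho between the dox 100 RNA count and the DNA count of the same library lay between -0.025 and 0.17. With the reporter's RNA count at dox 0 rho lay between -0.012 and 0.20, and with that at dox 0.1 between 0.019 and 0.32. These correlations run over 106 to 309 reporters that share their libraries and are a description. RNA counts of both-culture reporters were higher, with a median of 211 in the lower of their 2 cultures.

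The values near the thresholds were as follows. At 10 to 12 counts there were 8 one-culture reporters, and 13 others had 7 to 9 counts beside 0. A further 48 had at least 10 counts beside a single count in the other culture. The lowest DNA count exceeded the minimum by less than 10 in 55 one-culture reporters, and fell short of it by up to 10 in 56 reporters that met the RNA rule alone. In all, 605 reporters met the RNA rule but not the DNA minimum.

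The highest count belonged to a pool D reporter at chr11:20757316. Its RNA counts in cultures 1 and 2 were 558 and 579 at dox 0, 497 and 237 at dox 0.01, 263 and 141 at dox 0.1, and 604 and 0 at dox 100. The cultures were closest at dox 0, and at dox 100 the count in culture 1 was as high as without dox while culture 2 had 0. Its DNA counts at dox 100 were 256 and 548, so the culture with 0 RNA counts held the more abundant integration. Against a floor of 3 counts in culture 2, and after division by library totals, the read count in culture 1 was 196-fold higher. That floor covers counting error alone, so this ratio of reads sets no lower limit on the ratio of RNA.

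A second pool D reporter, at chr5:20248209, had 638 and 670 RNA counts at dox 0, 781 and 628 at dox 0.01, 565 and 446 at dox 0.1, and 522 and 0 at dox 100. It too had RNA in both cultures until the highest dose. In pool A, the reporter at chr1:39579559 had 663 and 785, 864 and 1055, 1392 and 931, and then 437 and 0. Both sister cultures thus had higher counts at dox 0.1 than at dox 0, and 1 of them had 0 at dox 100.

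Other high counts came from reporters with less RNA at dox 0.1. The pool A reporter at chr1:89751319 had 101 and 116 RNA counts at dox 0, 45 and 55 at dox 0.01, 22 and 36 at dox 0.1, and then 448 and 0 at dox 100. The pool B reporter at chr14:78598056 had 311 and 348 at dox 0, 152 and 135 at dox 0.01, 0 in both cultures at dox 0.1, and 0 and 300 at dox 100. Its DNA counts at dox 100 were 418 and 694. The pool C reporter at chr1:66752179 had 165 and 220, 90 and 132, 113 and 67, and then 0 and 312. In these 3 reporters the dox 100 count in one culture exceeded every count of the same reporter at 0.01 and 0.1 ng/ml.

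Reporters with a dox 100 count near their pool's median gave RNA in both cultures at dox 0 and 0.01, and some were already uneven at dox 0.1. In pool A the one at chr1:10058328 had 1491 and 1810 RNA counts at dox 0, 1894 and 2007 at dox 0.01, 895 and 489 at dox 0.1, and 0 and 89 at dox 100. In pool D the one at chr1:135978099 had 1150 and 1156, 1132 and 708, 274 and 275, and 0 and 61. In pool B the one at chr2:73400303 already differed at dox 0.1, with 58 counts in culture 1 and 1 in culture 2, and had its dox 100 RNA in the opposite culture, at 0 and 69.

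At dox 0 and 0.01 nearly all one-culture reporters were read in both cultures, and at dox 0.1 fewer were. At least 10 RNA counts were present in both cultures in 1435 of the 1458 at dox 0, in 1406 at dox 0.01 and in 1019 (69.9%) at dox 0.1. At dox 0.1 the same held for 96.4% of both-culture reporters. Among the 1458, 225 had the one-culture pattern at dox 0.1 as well, 122 had 0 counts in both cultures and 92 lay in between. Their median RNA count, averaged over the 2 cultures, was 342 at dox 0, 236.5 at dox 0.01, 62 at dox 0.1 and 36 at dox 100. For both-culture reporters these medians were 795.5, 752, 452.5 and 300.5, and for silent reporters 164.5, 98, 16.5 and 0.

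The level of one-culture reporters lay between the other classes at each lower dose in every pool. Levels are log2 RNA per DNA, each divided by its library total with a pseudocount of 1 and averaged over the cultures. At dox 0.1 the pool medians for one-culture reporters were -3.34 in pool A, -3.24 in B, -2.97 in C and -2.90 in D. For silent reporters they were -6.12, -5.54, -5.69 and -5.67, and for both-culture reporters -0.47, -0.16, -0.22 and -0.37. The order of the classes was the same in all 4 pools, with no overlap of the pool medians.

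The difference from silent reporters was 0.81 ± 0.14 (SD, n = 4 pools) on the log2 scale at dox 0, 1.08 ± 0.23 at dox 0.01 and 2.64 ± 0.23 at dox 0.1. The difference from both-culture reporters was -1.15 ± 0.19, -1.55 ± 0.28 and -2.81 ± 0.23. Each of these 6 differences had one sign in 4 of 4 pools and an exact two-sided permutation p of 0.13, the smallest that 4 pools allow, or 0.19 adjusted over 15 tests. They exceed the spread between pools, but 4 pools cannot give a smaller p in this exact test. At dox 0.1 the distance to silent reporters depended on the pseudocount, at 4.14 with 0.1 and 1.70 with 5. Against reporters that had 1 to 9 counts in one dox 100 culture and 0 in the other, in place of silent ones, the difference was 0.22 (exact permutation p = 0.75).

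**Figure D2:**
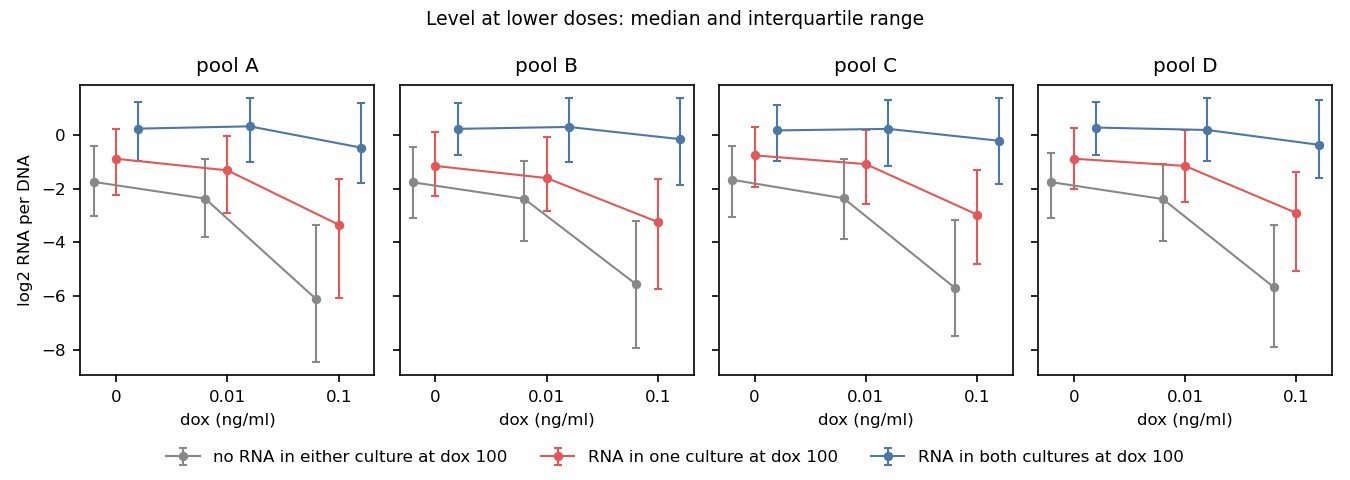
Level (log2 RNA per DNA, y axis) at dox 0, 0.01 and 0.1 ng/ml (x axis) of silent, one-culture and both-culture reporters, per pool; points are medians over reporters and bars span the interquartile range over reporters. One-culture reporters lie between the other classes in all pools, and the distances grow with dose, to a mean over pools of 2.64 against silent and -2.81 against both-culture reporters at dox 0.1.

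Individual levels overlapped widely between classes. At dox 0.1 the middle 90% of one-culture reporters spanned -8.94 to 0.23, that of both-culture reporters -4.24 to 3.58, and that of silent reporters -9.27 to -1.08. Ranked within their pool by level at dox 0.1, the reporters of the lowest decile were one-culture reporters in 15.3% of cases. The share was 29.7% in the fifth decile and was 2.96% in the highest. Ranked by level at dox 0, it ran from 14.9% in the lowest decile to 23.5% in the fifth and 13.7% in the highest. The level without dox therefore separated one-culture reporters from the rest much less than the level at dox 0.1 did.

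**Figure D3:**
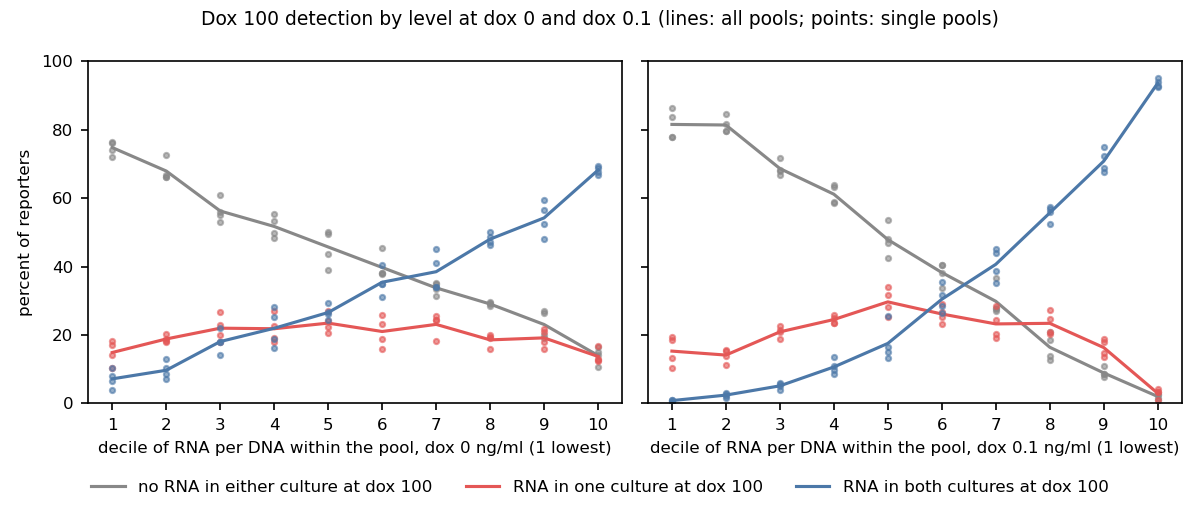
Percent of reporters (y axis) that were silent, one-culture or both-culture at dox 100, by decile of their level within the pool at dox 0 (left) and dox 0.1 (right); lines are all pools together and points single pools. The one-culture share is highest in the fifth decile in both panels, at 23.5% and 29.7%, and falls to 2.96% in the highest decile at dox 0.1.

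The extremes show how far the class reached. The pool C reporter at chr15:99508953 had 8268 and 9069 RNA counts at dox 0, 7473 and 7940 at dox 0.01, 892 and 598 at dox 0.1, and 72 and 0 at dox 100. The pool D reporter at chr12:112095695 had the highest level without dox, 3.60 on the log2 scale, with 4124 and 4090 counts at dox 0 and 94 and 0 at dox 100. At the other end, the pool B reporter at chr11:29350554 had 0 RNA counts in both cultures at dox 0, 3 and 2 at dox 0.01, 0 and 64 at dox 0.1, and 99 and 0 at dox 100. Its DNA counts, 11334 to 15869 over the 8 libraries, were far above the median of 459.75 for one-culture reporters. The pool B reporter at chr8:119226650 had 0 RNA counts in all 6 lower-dose libraries and 0 and 72 at dox 100. Neither of these last 2 had a count without dox, where the activator is bound.

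How many one-culture reporters were called lower between dox 0 and dox 0.1 depended on the libraries in the fit. The step was tested for every reporter with edgeR's quasi-likelihood test, adjusted by Benjamini-Hochberg within each pool. In the fit over all 16 libraries of a pool, 79 of the 1458 (5.42%) were called lower and none higher, where 19.8% of all 10785 reporters tested were called lower, 9.07% higher and 28.9% in either direction. That fit estimates its spread partly from the dox 100 libraries, in which the rule made the cultures differ. In a fit without them, 373 one-culture reporters (25.6%) were called lower and 62 (4.25%) higher, against a background of 25.1% lower, 12.2% higher and 37.3% in either direction. The share of lower calls was then close to that among all reporters.

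The median change of one-culture reporters between dox 0 and dox 0.1 was -0.85 on the log2 scale over all 16 libraries and -0.76 without the dox 100 libraries, beside -0.80 and -0.70 for all reporters. Scaling moved both medians over the 16 libraries: DESeq2 size factors gave -1.83 for one-culture and -1.76 for all reporters, and library totals -2.01 and -1.96, so changes are relative to the scaling. In the fit without the dox 100 libraries, 41.9% of silent reporters were called lower and 38.1% of both-culture reporters higher. Lower calls among one-culture reporters ranged from 20.5% in pool D to 30.4% in pool A. With culture as a replicate block the fit over all libraries called 46 lower in place of 79. Of all 10785 reporters it called 2718 in either direction in place of 3116. Without the dox 100 libraries the block gave 326 lower and 50 higher, beside 3581 of all reporters in either direction. In the unblocked fit without culture 1 or 2 of dox 0, the median change of one-culture reporters was -0.90 or -0.86. Without culture 1 or 2 of dox 0.1 it was -1.03 or -0.79. Such a fit leaves 1 culture at that dose, so its calls are not counted.

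The reporter at chr14:78598056 in pool B, with its 0 counts in both cultures at dox 0.1, was called lower in both fits (edgeR adjusted p = 0.0341 and 0.000104). The pool D reporter at chr5:20248209 was among those called higher without the dox 100 libraries, by 1.38 ± 0.35 (SE) on the log2 scale (edgeR adjusted p = 0.0101). With all 16 libraries it was not called: the change was 1.45, while DESeq2 size factors gave 0.37 and library totals 0.15, so its size depends on the scaling. The pool A reporter at chr1:39579559 was called in neither fit. Its change was 1.51 with all 16 libraries (edgeR adjusted p = 0.638) and 0.34 with library totals. Without the dox 100 libraries it was 1.67 (edgeR adjusted p = 0.0761), and the replicate block then gave 1.79 (edgeR adjusted p = 0.0484). The smaller step from dox 0 to 0.01 gave no call among one-culture reporters with edgeR, where 0.0185% of all reporters were called. At an unadjusted p under 0.05 there was 1 one-culture reporter (0.0686%), against 4.93% of all reporters. This step was fitted only with all 16 libraries, where the dox 100 libraries add to the spread. The lack of calls therefore does not show an absence of change. Between dox 0 and dox 100, the step the rule used, 162 were called lower and 7 higher, beside 50.4% and 10.9% of all reporters; nothing is read from this count.

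The culture with RNA was culture 1 for 914 one-culture reporters and culture 2 for 544, a share of 62.7% for culture 1. The pools differed. Culture 1 held the RNA in 154 of 342 cases in pool A (45.0%), 198 of 337 in B (58.8%), 253 of 364 in C (69.5%) and 309 of 415 in D (74.5%). The culture with more one-culture reporters also had the larger RNA total at dox 100 in pools A, C and D, with 1355706 against 1243175 counts in A, 943170 against 874199 in C and 1293924 against 1257909 in D. In pool B it had the smaller total, 729552 against 987409. The part of library size in the split was not tested.

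No preference for the culture that held RNA at dox 100 was found at the lower doses. For each pool, the median log2 ratio of culture 1 to culture 2 was compared between reporters with dox 100 RNA in culture 1 and those with it in culture 2. At dox 0.1 the medians for the former were -0.06, 0.03, 0.24 and 0.07 in pools A to D, and for the latter 0.09, 0.16, 0.29 and 0.07. The difference was -0.085 ± 0.073 (SD, n = 4 pools, exact permutation p = 0.13), which had the same sign in 4 of 4 pools, opposite to a shared preference. At dox 0.01 it was 0.041 ± 0.085 (exact permutation p = 0.5) and at dox 0 -0.024 ± 0.089 (exact permutation p = 1). The difference at dox 0.1 is slightly larger than its spread between pools and those at the other doses are smaller than theirs. That a number marks the same culture at every dose is taken from the labels; over all reporters of a pool, the deviations of same-numbered cultures at different doses correlated at -0.046 to 0.046 (Pearson's r, 24 comparisons).

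**Figure D4:**
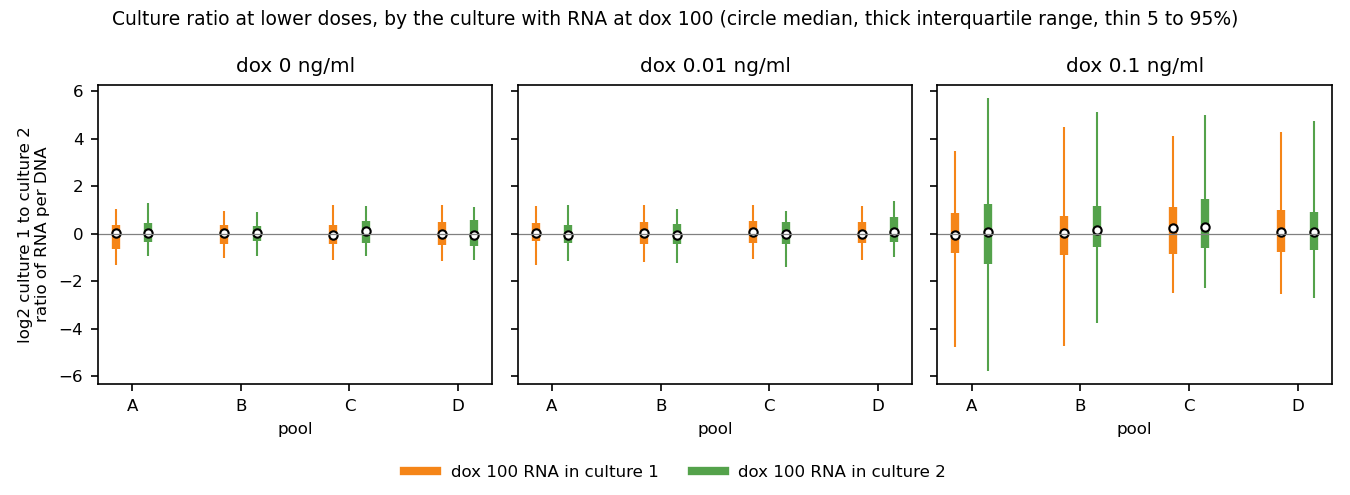
Log2 ratio of culture 1 to culture 2 in RNA per DNA (y axis) at dox 0, 0.01 and 0.1 for one-culture reporters of each pool (x axis), split by the culture that held RNA at dox 100; circles are medians over reporters, thick bars the interquartile range and thin bars 5 to 95%. Both groups centre near 0 at each dose, the medians at dox 0.1 lying between -0.06 and 0.29, and the spread is widest at dox 0.1.

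No one-culture reporter was called different between cultures by edgeR in a term shared by dox 0, 0.01 and 0.1. A difference at dox 0.1 alone, as in the 225 with the one-culture pattern there, counts partly as spread in this term. The fit of RNA per DNA to the 12 libraries of dox 0, 0.01 and 0.1 called 0 of 1458, and 0% of all 10785 reporters. At an unadjusted p under 0.05 there were 24 one-culture reporters (1.65%) against 1.97% of all, and in 9 of the 24 the higher culture was the one with dox 100 RNA. Regardless of p, the higher culture was the one with dox 100 RNA in 743 of 1458 cases (51.0%). The DESeq2 Wald test called 9 reporters in all, 1 of them a one-culture reporter.

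That reporter, in pool D at chr2:109122080, was also the single one of all 10785 whose DNA was called different between cultures (edgeR, 0.00927% of all). It is singled out after its values were seen. Its DNA counts were 886 and 348 at dox 0, 927 and 284 at dox 0.01, 903 and 406 at dox 0.1, and 580 and 397 at dox 100, so culture 1 was higher at each dose. Its DNA in culture 2 was lower by a log2 change of -1.21 ± 0.25 (SE, edgeR adjusted p = 0.0446). RNA was read 986 and 1001 times at dox 0, 961 and 652 times at dox 0.01, 580 and 543 times at dox 0.1, and 56 and 0 times at dox 100. Its RNA per DNA at the lower doses was higher in culture 2, by 1.47 ± 0.30 (SE), which edgeR did not call (adjusted p = 0.725) and DESeq2 did (adjusted p = 0.0150). Without a DNA minimum in the fit, edgeR no longer called its DNA.

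DNA counts of one-culture reporters lay between those of the other classes. The median DNA count, averaged over 8 libraries, was 459.75 for one-culture, 402.75 for silent and 517.125 for both-culture reporters. On the log2 scale the difference from silent reporters was 0.27 in pool A, 0.31 in B, 0.20 in C and 0.15 in D, a mean of 0.23 ± 0.072 (SD, n = 4 pools, exact permutation p = 0.13). The difference from both-culture reporters was -0.13 ± 0.11 (exact permutation p = 0.13), with the same sign in 4 of 4 pools, and -0.076 without pool A. With a DNA minimum of 200 the difference from silent reporters was 0.13. All 3 classes had the same DNA minimum.

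DNA counts differed little between the culture with RNA and the other. In 63 one-culture reporters (4.32%) DNA differed between cultures at an unadjusted p under 0.05, against 4.78% of all reporters, and in 45 of these 63 the culture with RNA had more DNA. Over all 1458, DNA was higher in the culture with RNA in 756 (51.9%). In the dox 100 DNA libraries, the median log2 culture ratio differed between the 2 groups by 0.030 ± 0.080 (SD, n = 4 pools, exact permutation p = 0.625). In the dox 0.1 DNA libraries the difference was 0.086 ± 0.051 (exact permutation p = 0.13), with more DNA toward the culture with RNA in 4 of 4 pools. At dox 0 it was 0.070 ± 0.11 (exact permutation p = 0.25), above 0 in 3 of 4 pools. At dox 0.01 it was -0.041 ± 0.14 (exact permutation p = 0.625), above 0 in 1 of 4, so the sign changed with dose.

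At dox 0.1, 225 of the one-culture reporters had the one-culture pattern as well. In 126 of them (56.0%) the RNA was in the same culture at both doses, with 37.7% in pool A, 48.9% in B, 57.1% in C and 77.8% in D. These shares rise with the pools' share of culture 1. Within pools A, B and C, the share with dox 100 RNA in culture 1 was lower for reporters with dox 0.1 RNA in culture 1 than for those with it in culture 2, at 24.2 against 46.4%, 53.6 against 58.8% and 63.0 against 70%. In pool D it was higher, at 81.5 against 44.4%. Over all pools the shares were 59.6 and 53.1%, which mixes pools with different splits between cultures. Some shares rest on few reporters: the 44.4% in pool D on 4 in culture 1 and 5 in culture 2, and the 70% in pool C on 7 and 3. The differences between these shares were not tested. In total 1071 reporters that met the DNA minimum had the one-culture pattern at dox 0.1. At dox 100, 745 of these were silent, 225 were one-culture and 64 were both-culture reporters.

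Single cases show the change of side. The pool B reporter at chr11:45710981 had 103 and 142 RNA counts at dox 0, 86 and 65 at dox 0.01, 0 and 168 at dox 0.1, and 53 and 0 at dox 100. The pool A reporter at chr12:4295567 likewise had 0 and 113 at dox 0.1 and 67 and 0 at dox 100. The pool C reporter at chr8:3426261 had 114 and 0 at dox 0.1 and 0 and 153 at dox 100. Others kept their side: the pool A reporter at chr4:31233817 had 0 and 122 at dox 0.1 and 0 and 81 at dox 100.

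One-culture reporters were found on all autosomes and on chromosome X. Their share of the reporters that met the DNA minimum ranged from 16.6% on chromosome 3 to 23.9% on chromosome 4 among autosomes, and was 21.2% on X, where there were 28. None of the 4 on Y was one. The share on chromosome 4 was 25.5% in pool A, 20.6% in B, 22.3% in C and 27.1% in D, above each pool's own share of 19.3, 18.4, 19.6 and 21.1%. Chromosome 4 was picked for its high share, which these pool shares make up, so they are no separate support. Single pools varied widely, as on chromosome 5 from 12.4% in pool C to 28.6% in pool A. Differences between chromosomes were not tested. On the plus strand lay 48.0%. No gene annotation of the mm9 build was at hand, so genes, exons and introns at these sites were not analysed here.

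Their surroundings lay between those of the other classes. The nearest other reporter of any pool was at a median of 45.1 kb, against 26.4 kb for both-culture and 74.1 kb for silent reporters. It was under 10 kb away for 19.5, 30.5 and 13.1% of them. In each pool the median distance was longest for silent and shortest for both-culture reporters, with 42.9 to 47.3 kb for one-culture reporters. Of the 236 neighbours within 10 kb of a one-culture reporter, 41.9% were both-culture, 34.3% silent and 19.5% one-culture reporters, the last share close to the 19.7% among all. Neighbours of both-culture reporters were both-culture reporters in 70.8% of cases, beside 32.8% among all, and neighbours of silent ones were silent in 50.3%, beside 43.6%. For one-culture reporters the share of their own class differed with distance and pool. It was 23.5% of 1370 neighbours at 10 to 100 kb, and 13.6% of the 59 neighbours of the same pool under 10 kb. These shares describe the sites and were not tested, since neighbours share a region.

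Pairs of one-culture reporters of the same pool were then compared for the culture that held the RNA. Of 4 pairs under 10 kb apart, 3 had RNA in the same culture, and of 37 pairs 10 to 100 kb apart, 26 had (70.3%). Under 100 kb the count was 29 of 41 pairs (70.7%), where the pools' own splits between culture 1 and 2 give 55.9%. It was 8 of 11 in pool A, 3 of 8 in B, 8 of 9 in C and 10 of 13 in D, so pool B did not share the excess. Farther apart no excess was seen: 133 of 249 pairs (53.4%) from 100 kb to 1 Mb, 56.2% beyond that on the chromosome and 56.0% on different chromosomes.

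The short-range share rests on few pairs. With at least 50 RNA counts required it was 13 of 20 pairs (65%), where the pools' own splits give 51.4%. With up to 3 counts allowed in the other culture it was 30 of 48 (62.5%), against 55.7% from those splits. It is a description of the values that chose the reporters and has no test.

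**Figure D5:**
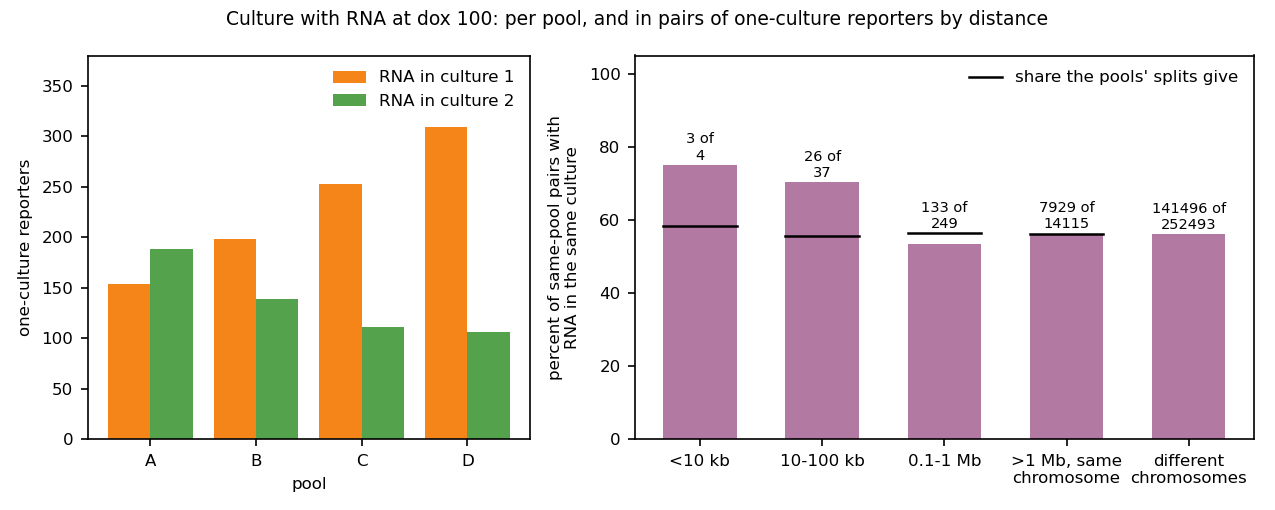
Left, number of one-culture reporters (y axis) per pool with RNA in culture 1 or culture 2 at dox 100. Right, percent of same-pool pairs of one-culture reporters with RNA in the same culture, by distance; black lines give the share expected from each pool's split between cultures, and numbers are pairs. Culture 1 leads in pools B, C and D, and the share of pairs is 70.3% at 10 to 100 kb and 53.4% at 100 kb to 1 Mb.

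The closest pair, in pool D, lay 325 bases apart at chr11:107847453 and chr11:107847778, with different barcodes on the same strand. Their RNA counts at dox 0 were 174 and 119 for the former and 139 and 120 for the latter, and at dox 0.1 17 and 67, and 111 and 119. At dox 100 both had RNA in culture 1, at 40 and 63 counts, and 0 in culture 2. The next pair in pool D, at chr1:90693726 and chr1:90697390, lay 3664 bases apart on opposite strands. It had 404 and 426, and 404 and 349 RNA counts at dox 0, 51 and 100, and 38 and 118 at dox 0.1, and 57 and 78 counts in culture 1 alone at dox 100. Both had the higher count in culture 2 at dox 0.1 and RNA in culture 1 alone at dox 100. A pool C pair at chr6:28977635 and chr6:28986016, 8381 bases apart, also had its dox 100 RNA in culture 1, at 36 and 44 counts, although dox 0 counts of 71 and 78 in the former and 981 and 1075 in the latter were far apart. Culture 1 held the RNA of 69.5% of all one-culture reporters in pool C and 74.5% in pool D. The remaining pair under 10 kb, in pool B at chr18:76234230 and chr18:76244158, lay 9928 bases apart. Its RNA was in opposite cultures at dox 100, with 0 and 92 counts for the former and 106 and 0 for the latter.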

How the data were processed

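Barcodes were counted by the authors in cDNA and genomic DNA, and the deposited table holds raw read counts per the file headers. Per the submitters' processing notes, Bowtie2 2.0 and mm9 were used, with no role stated for either. The titles name a tet-Off reporter, while protocols in the labels also name an mPGK promoter. Per the labels' protocols, 1 µl of a 50 µl reverse transcription of 2 µg RNA was amplified.

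The 118 reporters with a DNA count under 10 in any library were left out of the fits, which used edgeR 4.0.16 in R 4.3.3, per pool, with TMM scaling within assay and an adjusted p of 0.05. Fits were tested on simulated data. The SE is the log2 change over the square root of F. DESeq2 1.42.0, Python 3.11.15, scipy 1.17.1, pandas 2.3.3 and numpy 2.4.6 were also used. Replicate numbers were taken to mark cultures and so to pair samples, since per the labels' protocols each replicate culture was divided over the doses. The pairing check, the correlation of culture deviations between doses, gave -0.046 to 0.046 over 24 comparisons, so the counts show no pairing of their own. The 16 mapping libraries enter through positions; 0 value columns were unused.

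The members, tests and lists were chosen with earlier results of these data known. Named reporters are, per pool, the 3 highest and 2 median dox 100 counts, and over pools up to 10 with the smallest adjusted p between cultures, 8 nearest pairs, 8 highest dox 0.1 counts with the one-culture pattern, and the 5 highest and 5 lowest levels at dox 0.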

Additional observations from a re-analysis of the deposited data

Results flagged for a closer look

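In 3 comparisons the value of 1 pool stood apart from the other 3 by Dixon's criterion for 4 values. Pool B had the smallest difference between one-culture and silent reporters, 0.61 on the log2 scale at dox 0 and 2.30 at dox 0.1, where the highest pool had 0.91 and 2.78. In pool C the culture ratio at dox 0 differed between reporters with dox 100 RNA in culture 1 and in culture 2 by -0.16, where the highest of the other pools had 0.031. Chance flags about 1 in 20 such groups, and 15 comparisons were examined.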

How the results depend on the processing

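The number of one-culture reporters was 995 to 1778 under other minimums and 1346 without barcodes seen in another pool, all within 1.5 times 1458. The count of one-culture reporters called lower between dox 0 and dox 0.1, 79 with edgeR, was 136 with DESeq2 size factors, 156 with library totals, 229 with the DESeq2 Wald test, 46 with the replicate block and 1 to 30 without a replicate of dox 0 or 0.1. Without the dox 100 libraries, an alternative added after seeing the data, as were its block and leaving out shared barcodes, it was 373, or 326 with the replicate block. Called higher were 0 with edgeR, 2 with the Wald test, 0 to 1 without a replicate and 62 without the dox 100 libraries, or 50 with the replicate block as well. The number called between cultures in RNA per DNA was 0, and 1 with the Wald test. In DNA it was 1, and 0 without a DNA minimum. The culture and DNA fits have culture as the term tested and took no block. The 5 differences over pools for which alternatives were run (the culture ratio and both levels at dox 0.1, and both DNA differences) kept their direction, with an exact permutation p of 0.13 to 0.75. At dox 100, counting error alone allows up to 3 counts where 0 were read, or 2.21 to 4.11 CPM. RNA below that level could be missed in the culture with 0. Since a read is not a molecule, the floor is no upper limit on the RNA missed.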
